A study of Rattus norvegicus with 50 samples.

Results

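Messenger RNA of 8 genes of fibrin formation and breakdown was followed in the lungs of rats that had breathed nickel subsulfide (Ni3S2), a sparingly soluble nickel compound. The genes were taken by name, from a list chosen with earlier results of these data known. They were the fibrinogen chain genes Fga, Fgb and Fgg, the tissue factor gene F3, the thrombomodulin gene Thbd, the plasminogen activator genes Plau and Plat, and the urokinase receptor gene Plaur. All 8 of 8 were among the 13438 genes with a probe set of their own on the array. A gene with several probe sets is represented by its brightest, judged by the mean of the 50 arrays. Male Fischer 344 rats, 7 to 8 weeks old when received, were exposed to the aerosol at 0.60, 0.15, 0.08 or 0.04 mg/m3 (0.44, 0.11, 0.06 or 0.03 mg of nickel per m3), and controls at 0 mg/m3. Exposure lasted 6 hours daily, 5 days each week, and ended after 1 week with 5 exposure days or after 4 weeks with 20. Each time had its own unexposed controls. RNA came from microdissected distal airway and alveolar tissue of the right caudal lobe. In each of the 10 groups, 5 of 13 animals, those with the best RNA, gave 1 array each, so n = 5 throughout and p-values measure the spread between animals selected in that way. Levels are given as log2 intensity. Changes are differences on that scale ± the model's standard error (SE), and adjusted p values are from limma, two-sided, over all 13438 genes of a comparison. A gene is said to have risen or fallen where its adjusted p was under 0.05.

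Fibrinogen is assembled from the products of Fga, Fgb and Fgg, mainly in the liver, and thrombin cuts it into fibrin, the mesh of a clot. Tissue factor starts the clotting cascade when blood meets it, and thrombomodulin on endothelial cells turns thrombin towards activating protein C, which slows clotting. Urokinase (Plau) and tissue plasminogen activator (Plat) cut plasminogen into plasmin, which dissolves fibrin, and the urokinase receptor (Plaur) holds urokinase on the cell surface. In injured lungs, plasma proteins leak into the alveoli, fibrin can be laid down there, and macrophages and epithelial cells take part in its removal.

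The 1-week comparisons rest on control arrays that stood apart from most others. On the first principal component of all genes, which held 63.5% of the variance, the 1-week controls had a mean position of -58.0 and the 1-week 0.04 mg/m3 arrays of -76.5. The 1-week 0.08 mg/m3 arrays ran from -64.7 to 5.5. All other groups had means from 2.5 to 38.2. The controls of the times differed in 73.5% of all genes, and 67.4% of genes were called at 0.15 mg/m3 after 1 week, so a call at 1 week sets a gene apart little from the rest. No batch or processing day is given in the labels, so a batch that followed the groups, if there was one, could not be told apart from them. The markers of the labelled tissue were present: the mean level of 10 alveolar type 2 cell genes lay between 10.93 and 11.64 on all arrays, and that of 7 type 1 cell genes between 9.88 and 10.79. RNA was taken from whole tissue, so fewer cells of a type and less RNA per cell cannot be told apart.

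The 3 fibrinogen genes lie next to each other on rat chromosome 2 in the order Fgg, Fga, Fgb, with no other protein-coding gene between them in the RefSeq annotation of assembly GRCr8. Promoters of 5 of the 8 genes were matched by symbol in the RefSeq table, and those of F3, Thbd and Plat were not. The 250 bases before the annotated start are shown for the fibrinogen genes and Plaur. Of the fibrinogen genes, Fgg was called against controls in some comparisons, while Fga and Fgb had low signals and were called in none. Plaur is shown because it rose most at 4 weeks. Each is written 5′ to 3′ on the strand of its gene. Positions on GRCr8 are chr2:170652833-170653082 (plus strand) for Fgg, chr2:170671919-170672168 (plus) for Fga, chr2:170700876-170701125 (minus) for Fgb and chr1:89181113-89181362 (plus) for Plaur. Capitals mark CTGGGA, the core of interleukin 6 response elements, or its reverse complement, in the fibrinogen promoters, and TGANTCA, the AP-1 site, in that of Plaur.
Fgg: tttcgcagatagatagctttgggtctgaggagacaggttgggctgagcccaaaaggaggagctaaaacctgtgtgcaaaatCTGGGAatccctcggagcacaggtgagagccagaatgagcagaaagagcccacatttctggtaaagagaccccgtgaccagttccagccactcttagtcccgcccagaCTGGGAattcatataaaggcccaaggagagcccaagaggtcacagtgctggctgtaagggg
Fga: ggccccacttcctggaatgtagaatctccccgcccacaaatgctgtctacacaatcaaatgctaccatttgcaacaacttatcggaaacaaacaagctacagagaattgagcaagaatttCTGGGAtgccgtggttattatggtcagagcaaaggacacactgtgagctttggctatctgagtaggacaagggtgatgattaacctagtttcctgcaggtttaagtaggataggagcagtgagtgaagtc
Fgb: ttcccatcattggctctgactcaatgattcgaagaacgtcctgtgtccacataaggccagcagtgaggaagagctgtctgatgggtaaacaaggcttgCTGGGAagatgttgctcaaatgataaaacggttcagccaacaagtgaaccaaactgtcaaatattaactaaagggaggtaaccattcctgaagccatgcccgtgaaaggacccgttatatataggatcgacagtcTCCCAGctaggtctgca
Plaur: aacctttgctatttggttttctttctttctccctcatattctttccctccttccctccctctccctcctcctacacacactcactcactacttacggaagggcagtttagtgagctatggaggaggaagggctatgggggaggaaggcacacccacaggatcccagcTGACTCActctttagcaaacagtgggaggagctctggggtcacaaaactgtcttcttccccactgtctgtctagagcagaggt

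The motif CTGGGA was found 2 times in the promoter of Fgg, 1 time in that of Fga and 2 times in that of Fgb, read on both strands. It is common, since 25.7% of 33469 promoter windows of the same length held it. In Fgg the matches began 169 and 61 bases before the start, in Fga 130, and in Fgb 152 and 17. TTGCNNAA, a C/EBP site, began 144 bases before the start of Fga and 141 before that of Fgb, and was not found in the Fgg window (9.2% of all windows). GTTAATNAT, part of the site of the liver factor HNF1, was found in the Fga window alone of the fibrinogen genes (0.7% of all windows). TATAAA stood 50 bases before the start of Fgg and in neither of the other fibrinogen windows (12.9% of all windows). The Plaur window held TGANTCA once, 83 bases before the start (6.3% of all windows), and TGANTCA also occurred in Fgb, 234 bases before its start. The Plaur window also held CTGGGA on the opposite strand, at 90 bases, with no overlap with the AP-1 match, and TTGCNNAA at 73 bases. The hypoxia response core ACGTG (16.6% of all windows) and each of the other motifs were absent from the Plau window, and ACGTG also from the other 4. Letters alone do not show binding, and a window without a match says nothing of the factor.

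After 4 weeks at 0.60 mg/m3, Fgg was 1.52-fold higher than in controls and was the only fibrinogen gene to rise. Its levels were 10.04, 9.56, 9.57, 9.98 and 9.80 in the controls and 10.22, 10.26, 10.78, 10.44 and 10.27 in the exposed rats. All 5 exposed arrays lay above all 5 controls. The mean went from 9.79 ± 0.22 (SD, n = 5) to 10.39 ± 0.23, a change of 0.60 ± 0.21 (adjusted p = 0.0396 from limma). The call is narrow. It was lost with arrays centred on their median (0.55, adjusted p = 0.0558) and without any 1 of 6 of the 10 arrays, namely control replicate 2, 3 or 5 or exposed replicate 3, 4 or 5 (0.51 to 0.64, adjusted p from 0.0510 to 0.1207). In a model of the 25 arrays of 4 weeks alone the same difference had an adjusted p of 0.000582.

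At the lower concentrations Fgg was not called after 4 weeks and had levels of 9.59 ± 0.18 at 0.04 mg/m3, 9.58 ± 0.19 at 0.08 mg/m3 and 9.96 ± 0.19 at 0.15 mg/m3. The changes were -0.20, -0.22 and 0.17 (SE 0.21), with adjusted p of 0.591, 0.576 and 0.827. In the order of group means, 0.08, 0.04, control, 0.15 and 0.60 mg/m3, no neighbours were called. The spread in that test is pooled over all 10 groups, and the SD of Fgg was 0.60 in the 1-week controls. The step from 0.15 to 0.60 mg/m3 was 0.44 (adjusted p = 0.360, unadjusted p under 0.05, from limma), and the 5 arrays of 0.60 mg/m3 all lay above the 5 of 0.15 mg/m3.

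At 1 week Fgg differed far more. Its levels in the 1-week controls were 7.11, 7.92, 7.36, 7.08 and 8.48, the lowest and one of the widest-spread of the 10 groups (SD 0.60). The 5 arrays of 0.15 mg/m3 were at 9.73, 9.12, 9.51, 9.26 and 9.70, and those of 0.60 mg/m3 at 8.93, 9.44, 9.40, 9.40 and 9.64. Neither group overlapped with the controls. Fgg rose by 1.88 ± 0.21 at 0.15 mg/m3 (3.67-fold, adjusted p = 1.28e-10) and by 1.77 ± 0.21 at 0.60 mg/m3 (3.42-fold, adjusted p = 6.25e-10). At 0.08 mg/m3 the arrays, from 7.90 to 9.48, overlapped with the controls, and the rise was 1.09 (adjusted p = 3.66e-05). At 0.04 mg/m3 it was at 0.36 (adjusted p = 0.190).

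The 4-week controls held 4.60-fold more Fgg signal than the 1-week controls (2.20 ± 0.21, adjusted p = 1.08e-12), a larger difference than any exposure made in this model. With the main axis of spread inside the 1-week control and lowest-concentration groups as a covariate it was 0.26 (adjusted p = 0.551). That axis itself ran from -2.20 to -0.78 over the 1-week controls and from 0.84 to 1.00 over the 4-week controls. It thus nearly coincides with the comparison, and the smaller value cannot be read as a lack of difference. With the same covariate Fgg was still called higher at 0.60 mg/m3 after 1 week. Set against the 4-week controls, the 1-week 0.60 mg/m3 arrays were at -0.43 (adjusted p = 0.0884) and those of 0.15 mg/m3 at -0.33. The direction of the 1-week change in Fgg therefore depends on which controls are used. Other genes of the tissue also differed at 0.60 mg/m3 after 1 week, where 32.8% of all genes were higher and 32.3% lower. There 7 of 9 heart muscle genes were higher, 7 of 8 smooth muscle genes were lower, and 4 of 7 alveolar type 1 cell genes were higher and 2 lower. At 0.04 mg/m3, where Fgg was not called, all 8 smooth muscle genes were lower at 1 week and higher at 4 weeks. Of all genes, 26.9% were called there at 1 week and 12.9% at 4 weeks. Of the heart muscle genes, 0 were higher there at 1 week and 9 at 4 weeks. The mean of the heart muscle list ran from 4.50 to 8.11 over the 1-week controls and from 7.45 to 8.36 at 0.60 mg/m3, with only Myh7 of the 9 at a mean below 4 over the 50 arrays. The mean of the smooth muscle list ran from 8.95 to 9.73 and from 7.84 to 8.50, with none of its genes below 4. Their part in the result was not tested.

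**Figure D1:**
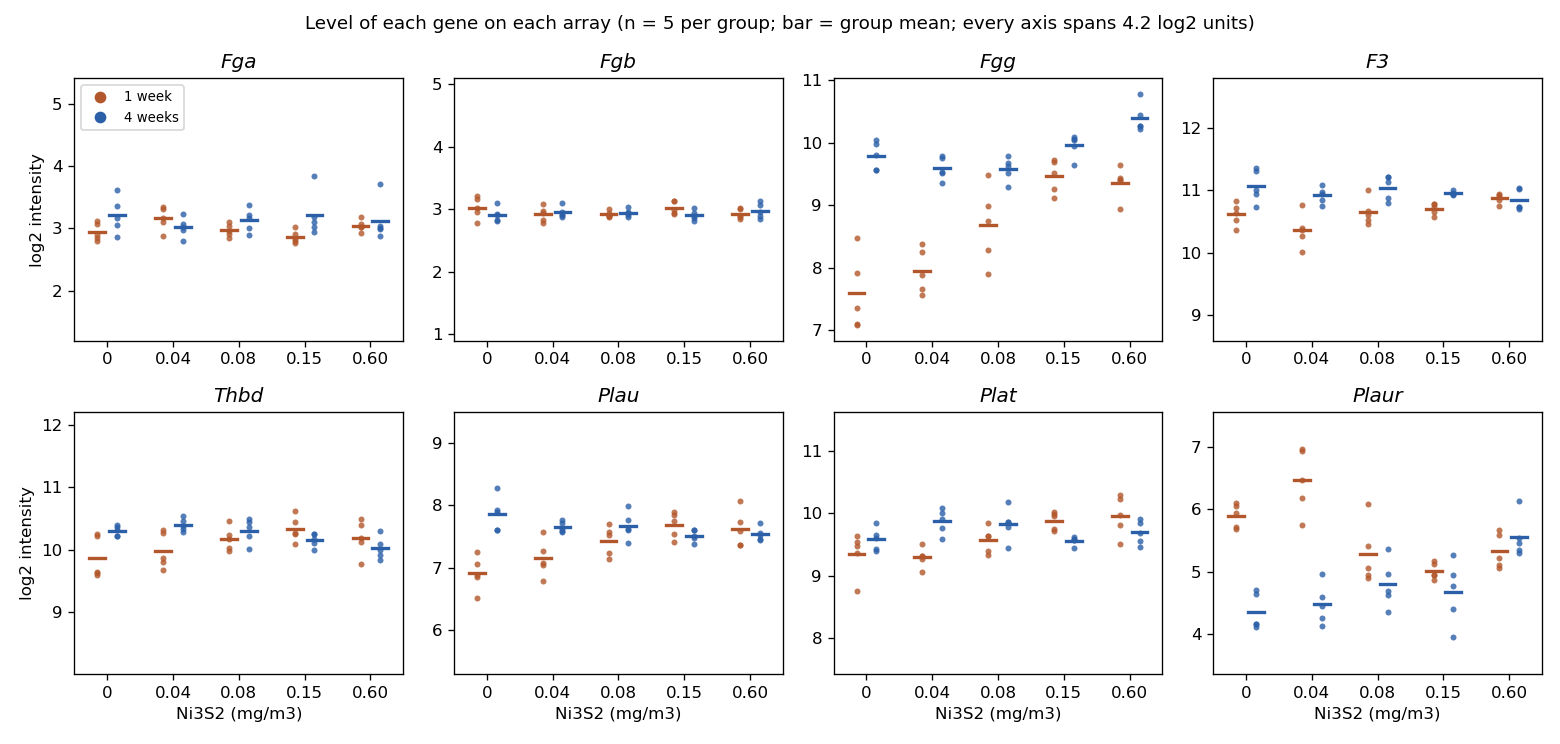
Level (log2 intensity) of each gene on all 50 arrays against the Ni3S2 concentration in mg/m3, with 1 point per array, a bar at each group mean, 1 week in orange and 4 weeks in blue. The mean of Fgg at 1 week is higher from 0.08 mg/m3 upwards than in controls, with no further rise from 0.15 to 0.60 mg/m3. The 0.08 mg/m3 arrays (7.90 to 9.48) overlap with the controls (7.08 to 8.48). Fgg reaches its highest levels, 10.22 to 10.78, at 0.60 mg/m3 after 4 weeks. The Plaur arrays of 0.60 mg/m3 after 4 weeks (5.30 to 6.13) lie above all 4-week controls (4.12 to 4.72).

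Fga and Fgb, whose products pair with that of Fgg in the fibrinogen molecule, stayed near the bottom of the measured range. Over all 50 arrays Fga lay between 2.77 and 3.84 and Fgb between 2.77 and 3.22, where the lowest value of the whole table was 2.22. At 0.60 mg/m3 after 4 weeks Fga was at 3.72, 3.04, 2.99, 2.87 and 3.01 and its controls at 3.36, 3.17, 2.86, 3.61 and 3.06. Fgb was at 2.89, 2.95, 3.14, 2.84 and 3.07 and its controls at 3.10, 2.83, 2.90, 2.92 and 2.82. Exposed and control arrays overlapped for both genes. Changes against controls ran from -0.19 to 0.22 for Fga and from -0.11 to 0.06 for Fgb over the 8 exposure groups, and none was called. No second probe set changed this at 0.60 mg/m3: the other of Fga and the other two of Fgb were not called there at 1 or 4 weeks, with values from -0.12 to 0.03. Probes bind with different strength, so signals this low neither rank the level of a messenger RNA nor set an upper bound on it. Levels of different probe sets are not compared here for the same reason.

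Genes of hepatocytes, the liver cells that make all 3 chains together, mostly had low signals. Of 15 hepatocyte genes measured, 9 had a mean below 4 over the 50 arrays, among them Alb (albumin), Apoa1, Apoh, Ahsg and Ttr. The mean of the list was 4.25 in the 4-week controls and 4.25 at 0.60 mg/m3, and over all arrays it lay between 4.22 and 4.61. Arg1 (arginase), which macrophages also express, was the 1 gene of 15 that rose at 0.60 mg/m3 after 4 weeks (0.76 ± 0.20, adjusted p = 0.00567), where 9.47% of all genes rose. Rbp4, the brightest of the list, was at -0.33 (adjusted p = 0.130).

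Interleukin 6 type cytokines act on the fibrinogen genes in the liver. At 0.60 mg/m3 after 4 weeks 9.47% of all genes rose and 7.90% fell. Of 17 measured genes of interleukin 6 type cytokines, receptors and targets, 3 rose and 0 fell there, with a median change of 0.08 against -0.01 over all genes. They were the transcription cofactor Bcl3 (1.05 ± 0.16, adjusted p = 2.31e-06), the AP-1 subunit Junb (0.83) and the metalloprotease inhibitor Timp1 (0.51). Il6 itself was at 3.32 in controls and 3.40 at 0.60 mg/m3, and Il6, Il11, Lif and Socs3 had means below 4 over the 50 arrays. At 0.60 mg/m3 after 1 week, where Fgg had risen against its controls, 3 genes of the list were higher and 10 lower, beside 32.8% and 32.3% of all genes. Timp1 was higher (2.48 ± 0.16), and Cebpd (-1.66), Cebpb (-1.37) and Junb (-0.91) were lower.

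F3, the gene of tissue factor, differed little from controls at either time. At 0.60 mg/m3 after 4 weeks its levels were 10.74, 11.03, 10.70, 11.04 and 10.74, and those of controls 10.74, 11.36, 11.31, 10.94 and 11.01. The arrays overlapped, and the change of -0.22 ± 0.11 did not pass (adjusted p = 0.174), although it was called with array weights (-0.25, adjusted p = 0.0316). The lower concentrations were at -0.15, -0.03 and -0.11 at 4 weeks. At 1 week 0.60 mg/m3 gave 10.93, 10.89, 10.85, 10.94 and 10.75 against 10.63, 10.53, 10.37, 10.83 and 10.72 in controls. These arrays also overlapped, and F3 was higher by 0.26 ± 0.11 (1.20-fold, adjusted p = 0.0384). That call was lost without any 1 of 7 of the 10 arrays (control replicates 1, 2 and 3, exposed replicates 1, 2, 3 and 4), with values from 0.20 to 0.26 and adjusted p up to 0.139. It was also lost with median-centred arrays (0.23, adjusted p = 0.0637) and with quantile normalization (0.21, adjusted p = 0.0924).

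Thbd, the brake of clotting on endothelium, gave different answers by probe set at the upper concentrations of 1 week and was lower in all of its probe sets at 0.60 mg/m3 after 4 weeks. The probe set with the highest mean, 1375951, was at 10.31, 10.22, 10.40, 10.36 and 10.21 in the 4-week controls and at 9.84, 9.92, 10, 10.29 and 10.08 after 4 weeks at 0.60 mg/m3. A single exposed array, replicate 4, lay inside the range of the controls. The change of -0.27 ± 0.13 did not pass (adjusted p = 0.154). In a fit over the 19063 probe sets with 1 symbol, probe set 1368901 fell by 0.57 on the log2 scale (SE 0.15, adjusted p = 0.00437), from 8.13 ± 0.21 to 7.56 ± 0.27. The third, 1368900, was at -0.31 ± 0.15 (adjusted p = 0.166). All of them were thus lower in mean at 0.60 mg/m3, with 1 of 3 called. At 0.15 mg/m3 all were lower as well (-0.24 to -0.15), at 0.08 mg/m3 they ran from -0.09 to 0.09 and at 0.04 mg/m3 all were higher (0.06 to 0.10), with none called. The mean of the probe sets changed by -0.39 and was called, and 1375951 itself was called with array weights, with the compared arrays modelled alone and with the 4-week arrays modelled alone.

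At 1 week, 1375951 rose from 0.08 mg/m3 upwards, by 0.31, 0.47 and 0.33 (adjusted p = 0.0478, 0.00165 and 0.0265). In the fit over probe sets the call at 0.08 mg/m3 was not made (adjusted p = 0.0520). In the same rats at 0.60 mg/m3, 1368901 was lower by -0.42 ± 0.15 (adjusted p = 0.0111) and 1368900 by -0.37 ± 0.15 (adjusted p = 0.0312). At 0.04 mg/m3 all 3 were higher in mean (0.12, 0.28 and 0.55), and 1368900 was called (adjusted p = 0.00704). Between the controls, 1375951 was higher at 4 weeks (0.43) and the others were lower (-0.45 and -0.33). From 0.08 mg/m3 upwards at 1 week no direction for Thbd holds over its probe sets, and their mean changed by -0.15 at 0.60 mg/m3 (adjusted p = 0.302). The calls of 1375951 at 0.08 and 0.60 mg/m3 were also lost without single arrays, at 0.08 mg/m3 without control replicate 1, 3 or 4 or exposed replicate 2, 3 or 4, and at 0.60 mg/m3 without control replicate 1, 3 or 4 or exposed replicate 4 or 5 (0.24 to 0.31, adjusted p up to 0.160). That at 0.08 mg/m3 was also lost with median-centred arrays (0.29, adjusted p = 0.0553), with quantile normalization (0.27, adjusted p = 0.0758) and with the compared arrays modelled alone (adjusted p = 0.162). The call at 0.60 mg/m3 was lost with quantile normalization (0.28, adjusted p = 0.0558) and with the compared arrays modelled alone (adjusted p = 0.103).

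**Figure D2:**
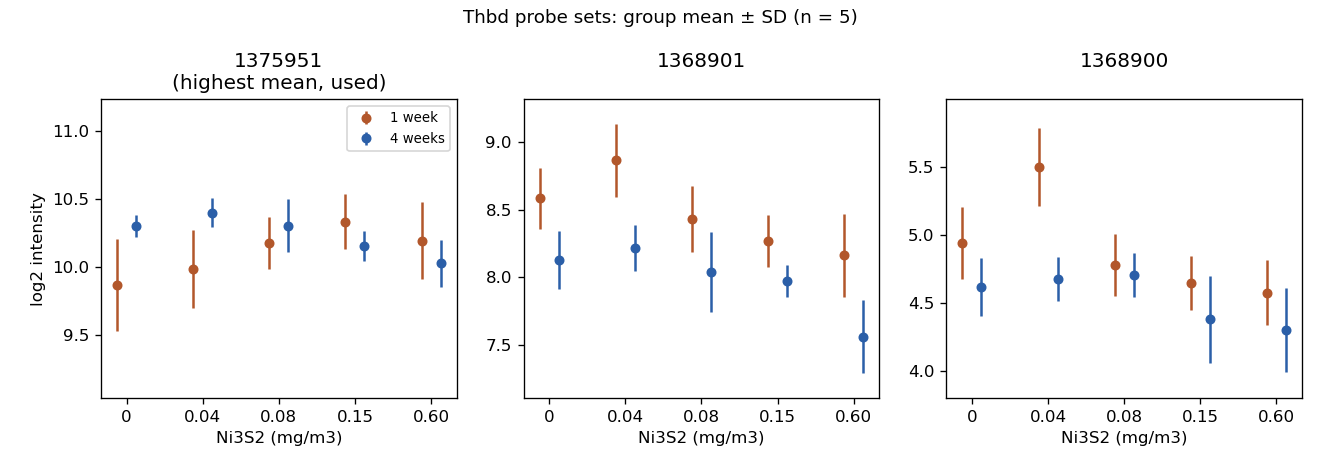
Mean ± SD (n = 5) of the log2 intensity of the 3 Thbd probe sets against the Ni3S2 concentration in mg/m3, at 1 week (orange) and 4 weeks (blue), each panel spanning the same number of log2 units. At 1 week 1375951 is lowest in the controls (9.87) whereas 1368901 and 1368900 are highest at 0.04 mg/m3 (8.86 and 5.50), and at 4 weeks all 3 are lowest at 0.60 mg/m3 (10.03, 7.56 and 4.30).

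Plaur, the receptor that holds urokinase at the cell surface, showed the largest change of the 8 genes at 4 weeks. Its levels were 5.35, 5.30, 6.13, 5.47 and 5.55 at 0.60 mg/m3, against 4.64, 4.17, 4.16, 4.72 and 4.12 in controls. The groups did not overlap. Plaur rose 2.29-fold, from 4.36 ± 0.29 (SD, n = 5) to 5.56 ± 0.34, a change of 1.20 ± 0.22 (adjusted p = 7.77e-05). The call held under all 10 other settings (1.12 to 1.20, highest adjusted p 0.000309) and without each array in turn (1.05 to 1.29, highest adjusted p 0.000826).

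At the lower concentrations Plaur was not called at 4 weeks and had levels of 4.48 ± 0.32, 4.81 ± 0.38 and 4.67 ± 0.51 from 0.04 to 0.15 mg/m3. The arrays overlapped with the controls each time (adjusted p = 0.787, 0.214 and 0.607). With array weights the difference at 0.08 mg/m3 was called (0.50, adjusted p = 0.0479). The order of means at 4 weeks was control, 0.04, 0.15, 0.08 and 0.60 mg/m3, and only the last neighbours differed, by 0.75 (adjusted p = 0.0101). The 0.60 mg/m3 group was also above the 0.15 mg/m3 group, by 0.89 (adjusted p = 0.0145), with no overlap between their arrays.

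At 1 week Plaur went the other way against its own controls. Control levels were 5.94, 5.68, 6.09, 5.71 and 6.06, and 0.60 mg/m3 gave 5.05, 5.59, 5.22, 5.10 and 5.67. All exposed arrays lay below all controls, although the nearest, 5.67 and 5.68, were close. Plaur fell by 0.57 on the log2 scale at 0.60 mg/m3 (adjusted p = 0.0233), by 0.88 at 0.15 mg/m3 (adjusted p = 0.000525) and by 0.61 at 0.08 mg/m3 (adjusted p = 0.0201), and was at 0.57 at 0.04 mg/m3 (adjusted p = 0.0529). The last was called, as a rise, in 5 of 10 other settings: without the dimmest genes, with median centring, with quantile normalization, with the replicate block (adjusted p from 0.0215 to 0.0485) and against the 4-week controls (adjusted p = 1.14e-11). The call at 0.60 mg/m3 was lost without control replicate 3 or exposed replicate 1 or 4 (-0.52 to -0.50), and that at 0.08 mg/m3 without control replicate 3 or exposed replicate 3, 4 or 5 (-0.56 to -0.52). The 1-week controls were 2.90-fold above the 4-week controls (a difference of -1.53 for 4 weeks against 1 week, adjusted p = 4.17e-08). Against the 4-week controls, the 1-week 0.60 mg/m3 arrays were higher by 0.97 (adjusted p = 0.000344). The level at 0.60 mg/m3 was 5.33 ± 0.29 at 1 week and 5.56 ± 0.34 at 4 weeks (difference 0.23 ± 0.22, adjusted p = 0.398).

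Plau, which encodes urokinase itself, did not rise with its receptor at 4 weeks. It was at 7.53, 7.46, 7.71, 7.45 and 7.56 at 0.60 mg/m3, and in controls at 8.28, 7.61, 7.61, 7.93 and 7.89. The single exposed array at 7.71 overlapped with the controls. The change of -0.32 ± 0.14 did not pass (adjusted p = 0.103). At 0.15 mg/m3 it was -0.35 ± 0.14 (adjusted p = 0.190), with all 5 arrays below the controls. The second Plau probe set, 1398287, gave 0.05 at 0.60 mg/m3 and -0.14 at 0.15 mg/m3, so the probe sets had the same sign at 0.15 mg/m3 and opposite signs at 0.60 mg/m3. The differences of the main probe set at 0.60 and 0.15 mg/m3 were both called with array weights and in a model of the 4-week arrays alone. Probe set 1398287 was not fitted by itself under those settings.

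Both Plau probe sets rose at 1 week. Levels of the main one were 6.88, 7.26, 6.85, 6.52 and 7.06 in controls and 7.37, 7.37, 7.59, 7.74 and 8.06 at 0.60 mg/m3. The groups did not overlap. From 0.08 mg/m3 upwards it rose by 0.52, 0.77 and 0.71 (adjusted p = 0.00144, 2.72e-06 and 1.18e-05), and 1398287 by 0.67, 0.92 and 0.76. The 4-week controls were again higher than the 1-week controls, by 0.95 ± 0.14 (adjusted p = 3.41e-08). Against the 4-week controls the 1-week 0.60 mg/m3 arrays were at -0.24 (adjusted p = 0.152).

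Plat, the gene of tissue plasminogen activator, rose at 1 week and was not called at 4 weeks. At 1 week controls were at 9.47, 9.63, 8.76, 9.36 and 9.53, and 0.60 mg/m3 at 9.51, 9.96, 9.81, 10.22 and 10.29. These overlapped in the lowest exposed array. The rise was 0.61 ± 0.14 at 0.60 mg/m3 (1.52-fold, adjusted p = 0.000135) and 0.53 ± 0.14 at 0.15 mg/m3 (adjusted p = 0.000684), where no arrays overlapped. At 4 weeks the changes from 0.04 to 0.60 mg/m3 were 0.29, 0.25, -0.02 and 0.11 (SE 0.14), with adjusted p from 0.169 to 0.977. The difference at 0.04 mg/m3 was called with array weights (0.32, adjusted p = 0.00632). Unlike Fgg, Plau and Plaur, Plat was not called between the controls of the times (0.23, adjusted p = 0.128), and against the 4-week controls the 1-week arrays of 0.60 mg/m3 were higher and called (0.38, adjusted p = 0.0196). Those of 0.15 mg/m3 were at 0.30 and not called (adjusted p = 0.0718).

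**Figure D3:**
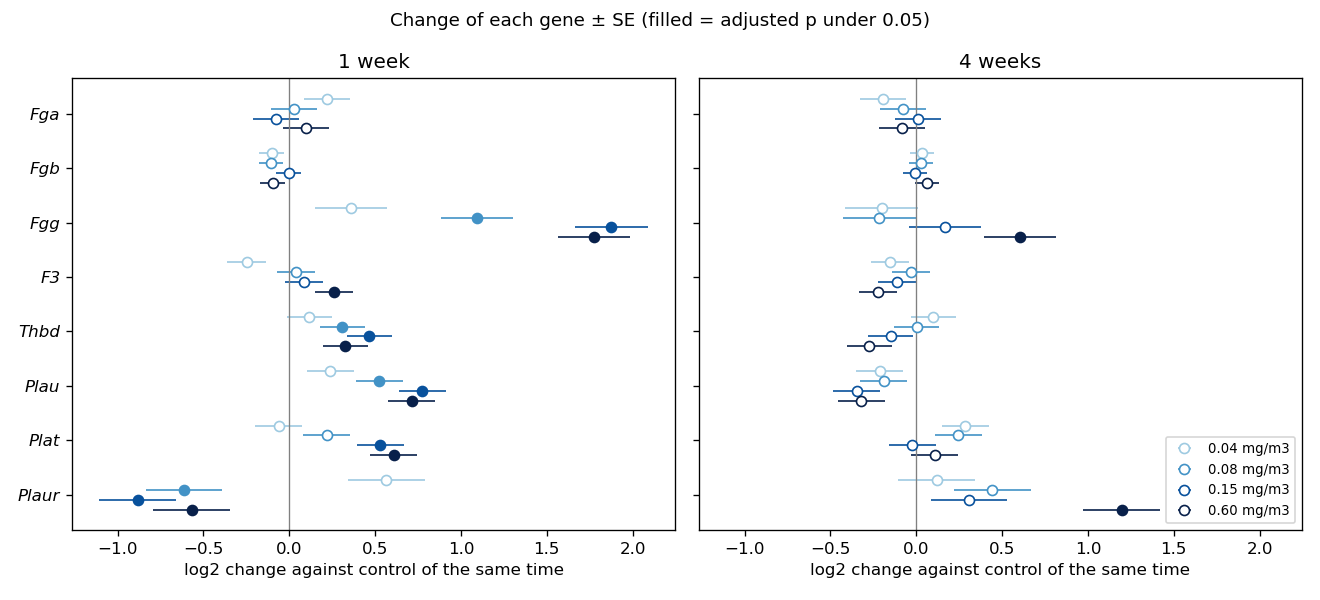
Change (log2) of each gene against the controls of its time, ± SE, for the 4 concentrations at 1 week (left) and 4 weeks (right), with filled points where adjusted p was under 0.05. At 1 week Fgg reaches 1.88 and Plaur -0.88 at 0.15 mg/m3, and at 4 weeks the filled points are Fgg (0.60) and Plaur (1.20) at 0.60 mg/m3.

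The 4 concentrations of a time were set against the same 5 control arrays. Counted together, 2 of the 8 genes were called after 4 weeks at 0.60 mg/m3, both higher, where 17.4% of all genes were called, 9.47% higher and 7.90% lower. At 4 weeks 0 of 8 were called by limma at 0.04, 0.08 or 0.15 mg/m3, where 12.9%, 8.54% and 3.50% of all genes were. At an unadjusted p under 0.05, 1, 0 and 1 genes passed there, Plat at 0.04 mg/m3 and Plau at 0.15 mg/m3. The median change of the 8 at 0.60 mg/m3 was -0.01, and that of all genes -0.01. At 1 week 0, 4, 5 and 6 of 8 were called from 0.04 to 0.60 mg/m3, beside 26.9%, 48.6%, 67.4% and 65.1% of all genes. At 0.04 mg/m3, F3 and Plaur had an unadjusted p under 0.05. At 0.60 mg/m3 after 1 week 5 were higher and 1 lower (32.8% and 32.3% of all genes). With such shares of all genes called, the 1-week counts set these genes apart little. With the main axis of spread inside the 1-week control and lowest-concentration groups as a covariate, Fgg alone of the 8 was called at 0.60 mg/m3 after 1 week (0.62, adjusted p = 0.00796), while Plau was at 0.31 and Plat at 0.10. With the same covariate Thbd alone was called between the controls, and lower at 4 weeks (-0.60, adjusted p = 0.0299). The axis itself set the 1-week controls apart from the 4-week controls and from the 1-week 0.60 mg/m3 arrays. Calls lost with it therefore cannot be read as a lack of change.

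Between neighbouring concentrations few of the 8 genes differed. At 1 week 3 differed between 0.04 and 0.08 mg/m3 (Fgg and F3 higher, Plaur lower at 0.08 mg/m3), beside 62.9% of all genes. From 0.08 to 0.15 mg/m3 Fgg alone was called, beside 46.8%. From 0.15 to 0.60 mg/m3 it was 0, beside 0.0149%. At 4 weeks the counts were 0 from 0.04 to 0.08 mg/m3 (0.00744% of all genes) and 0 from 0.08 to 0.15 mg/m3 (18.6%). From 0.15 to 0.60 mg/m3 Plaur was called (2.87%). At an unadjusted p under 0.05 the 3 steps with a count of 0 had 0 genes as well.

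The change made by exposure differed between the times for 3, 5 and 6 of the 8 genes at the concentrations from 0.08 mg/m3 upwards, beside 44.4%, 56.8% and 56.7% of all genes. At 0.04 mg/m3 it was 0 (12.0% of all genes), with Fga and Plau at an unadjusted p under 0.05. At 0.60 mg/m3 the difference of changes, 4 weeks minus 1 week, was 1.76 ± 0.32 for Plaur (adjusted p = 6.82e-06). It was -1.17 ± 0.30 for Fgg and -1.03 ± 0.19 for Plau. Between the unexposed controls themselves 5 of 8 differed, beside 73.5% of all genes. Fgg, F3, Thbd and Plau were higher at 4 weeks and Plaur was lower. For these 5 genes the difference of changes at 0.60 mg/m3 had the opposite sign to the difference of the controls, and both contain the same control arrays.

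Other genes of clotting changed in small numbers at 0.60 mg/m3 after 4 weeks, where 9.47% of all genes rose and 7.90% fell. The clotting factor list of 11 measured genes also held Vkorc1 and Ggcx, which encode enzymes of vitamin K use. Of the 11, 2 rose and 0 fell. F10, the protease that makes thrombin, went from 4.79 ± 0.06 to 5.57 ± 0.24 (0.78, adjusted p = 0.00230). Klkb1, plasma prekallikrein, went from 6.68 ± 0.23 to 7.31 ± 0.20 (0.63, adjusted p = 0.0124). The exposed arrays lay above the controls for both. Of 11 inhibitor genes 1 rose and 2 fell. Serpina10, an inhibitor of factor X, rose by 1.02 ± 0.15, Serpind1, heparin cofactor II, changed by -1.26 ± 0.18, and Proc, protein C, by -0.75 ± 0.21. Of 4 genes of the thrombin receptor family none was called by limma, with F2r at 0.02 (adjusted p = 0.950) and F2rl1, F2rl2 and F2rl3 at means below 4 over the 50 arrays. The medians of these lists were -0.04, -0.06 and 0.01, against -0.01 over all genes.

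Among 11 genes of plasmin and its control, 2 rose and 0 fell at 0.60 mg/m3 after 4 weeks, beside 9.47% and 7.90% of all genes. Cpb2, which encodes a carboxypeptidase that protects fibrin from plasmin, rose from 3.66 ± 0.21 to 4.62 ± 0.16 (0.96 ± 0.11, adjusted p = 5.33e-09). A2m, a broad protease inhibitor, rose by 1.17 ± 0.37 (adjusted p = 0.0207). Plg, the precursor of plasmin, was at 3.77 ± 0.09 in controls and 3.66 ± 0.12 at 0.60 mg/m3 and was not called. Plg, Serpinb2, Serpinf2, Cpb2 and Hrg had means below 4 over the 50 arrays, and the median change of the list was 0.03. At 0.60 mg/m3 after 1 week 5 of 11 were higher and 1 lower, beside 32.8% and 32.3% of all genes, so these counts set the list apart little. Among the rises were the annexin pair Anxa2 (1.22 ± 0.08) and S100a10 (1.08 ± 0.09), which binds plasminogen on cells, the plasminogen receptor Plgrkt (0.77) and Serpini1 (1.63). Lrp1, which clears protease and inhibitor complexes, was at -0.93. In the other lists at 1 week, the clotting factor list had 1 higher and 4 lower of 11. F13a1, which crosslinks fibrin, was at 1.22. The lower genes were Vwf (-0.66), F5 (-0.525) and the vitamin K enzyme genes Vkorc1 (-0.54) and Ggcx (-0.375). Inhibitors had 5 higher and 2 lower of 11, with Pros1 at 0.72, Proc at -1.15 and its receptor gene Procr at -0.99. Of the thrombin receptor family F2r rose (0.75).

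**Figure D4:**
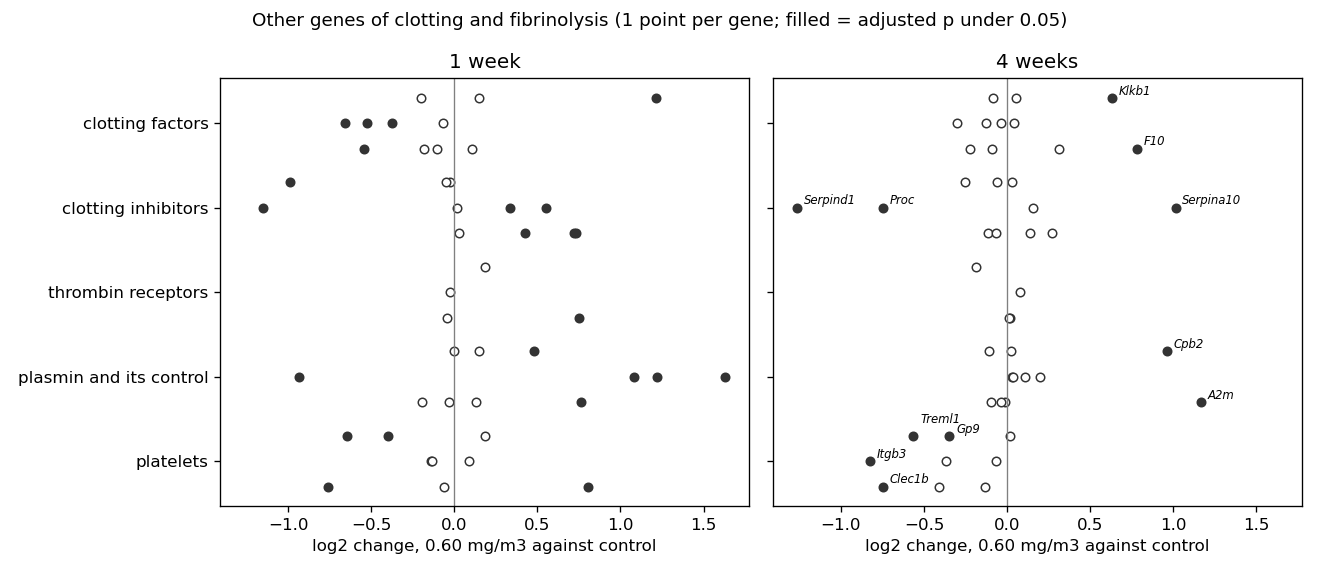
Change (log2) at 0.60 mg/m3 against controls of the same time for the other measured genes of clotting, plasmin control and platelets, 1 point per gene, filled where adjusted p was under 0.05, at 1 week (left) and 4 weeks (right). The called genes at 4 weeks are named and run from Serpind1 at -1.26 to A2m at 1.17.

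Platelet genes and markers of other cells moved beside these results at 0.60 mg/m3 after 4 weeks, where 9.47% of all genes rose and 7.90% fell. Of 9 platelet genes 0 rose and 4 fell, the integrin Itgb3 (-0.82), Clec1b (-0.75), Treml1 (-0.56) and Gp9 (-0.35), while Pf4, the brightest, was at 0.02 (adjusted p = 0.936). The mean of the list went from 5.40 (5.28 to 5.50) to 5.02 (4.94 to 5.17), and Gp5 and Ppbp, like all genes named as below 4 here, had a mean below 4 over the 50 arrays. Beside the fall in a Thbd probe set, 4 of 9 endothelial genes were lower and 0 higher, and their mean went from 9.82 (9.58 to 10.01) to 9.48 (9.34 to 9.58), with none below 4. Beside the rise of Plaur, 5 of 11 genes of monocytes and recruited macrophages and 4 of 7 neutrophil genes were higher and 0 lower. The same numbers were higher and 0 lower at 0.60 mg/m3 after 1 week, where Plaur was called lower (-0.57). There 32.8% of all genes were higher and 32.3% lower. At 4 weeks the mean of the monocyte and macrophage list went from 7.65 (7.48 to 7.85) to 8.51 (8.35 to 8.68), with Ccr2 and Cx3cr1 below 4. That of the neutrophil list went from 5.80 (5.61 to 6.21) to 6.44 (6.23 to 6.69), with Cxcr2, Mmp8 and Mmp9 below 4. Of 6 alveolar macrophage genes, 1 rose and 1 fell, with a mean of 8.55 (8.39 to 8.74) and then 8.47 (8.38 to 8.67) and none below 4. Beside the rise of Fgg, 6 of 10 alveolar type 2 cell genes were higher and 2 lower, with a median change of 0.26. Napsa (0.53) and Lamp3 (0.45) were among the higher and the surfactant protein gene Sftpb (-0.33) and the transcription factor gene Etv5 (-0.65) were the lower, all chosen after their values were seen. The mean of that list went from 11.33 (11.23 to 11.40) to 11.47 (11.39 to 11.62), with none below 4. The part of these cells in the results was not tested.

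The genes whose levels followed each member most closely are a description of the 25 arrays of a time, which share group differences, tissue makeup and normalization, so no p is given. At 4 weeks Fgg was most like Dram1 (Pearson r = 0.958), Lrp2 (0.949) and Gsap (0.939). Plaur was most like Capg (0.885), an actin-capping protein of macrophages, Map2k1 (0.876) and Lgi3 (0.874). Thbd was most like the endothelial genes Pecam1 (0.916) and Eng (0.911), and Pfdn5 (0.909). The closest gene was Mpzl2 for Plau (0.847), Selenon for Plat (0.874) and Slc5a3 for F3 (0.850). At 1 week the closest were Myzap (0.987) for Fgg, ahead of Egfl6 and Emcn, Stard8 (0.969) for Plau, Cyth3 (0.951) for Thbd, Ccn2 (0.942) for Plat, Cklf (0.935) for Plaur and Arl6 (0.810) for F3. For Fga and Fgb, whose signals were under 4 on all 50 arrays, no gene exceeded 0.758. No gene among the 3 closest to a member was the same at the other time.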

How the data were processed

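The 50 arrays are Affymetrix HT rat expression arrays. The authors deposited log2 intensities made with RMA in Partek, per the submitters' processing notes, with versions, scan dates and the arrays normalised together not given in the sources used here. RMA shrinks differences between low signals. No value was transformed again. Of 31042 probe sets, 19063 had 1 symbol in the platform gene table, and the brightest per gene gave 13438 genes. limma 3.58.1 (R 4.3.3) fitted 1 mean per group to all 50 arrays with eBayes, and Benjamini-Hochberg adjustment ran over all genes of a comparison. The fit was tested on simulated data. The labels' replicate numbers did not pair arrays. Named genes were the 8 members, the called genes of each list about clotting, plasmin, platelets, hepatocytes or interleukin 6 at 0.60 mg/m3 (at most 5 per time), the brightest hepatocyte and platelet gene, and the 3 most like genes by Pearson correlation. Plg, F2r, Il6 and the genes named as below 4 were named after their values were seen. The members and lists were chosen with earlier results of these data known. Alternatives were array weights, a filter on dim genes, centring, quantile normalization, an intensity trend, the mean of probe sets, a replicate block, models of fewer arrays, 4-week controls, a covariate and omission of each array. Array values have no count depth: their number, 5 per group, limits precision.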

Additional observations from a re-analysis of the deposited data

Results flagged for a closer look

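For Fga 2 arrays stood apart from the other 4 of their group, replicate 2 of 0.15 mg/m3 at 4 weeks (3.84, others 2.94 to 3.18) and replicate 1 of 0.60 mg/m3 at 4 weeks (3.72, others 2.87 to 3.04). Over the 80 groups of values checked, chance alone flags about 1 in 20.

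The change made by exposure differed between the times, by limma's test of the difference itself, in 14 of 32 comparisons. In that test 12.0%, 44.4%, 56.8% and 56.7% of all genes were called from 0.04 to 0.60 mg/m3. The count thus sets these genes apart little. At 4 weeks minus 1 week Fgg was at -1.31 (0.08 mg/m3, adjusted p = 0.000431), -1.71 (0.15 mg/m3, adjusted p = 4.47e-06) and -1.17 (0.60 mg/m3, adjusted p = 0.000829). Plau was at -0.71, -1.12 and -1.03 at the same concentrations (adjusted p = 0.00248, 3.71e-06 and 1.42e-05). Plaur went the other way, with 1.06, 1.19 and 1.76 (adjusted p = 0.00559, 0.00120 and 6.82e-06). At 0.15 and 0.60 mg/m3 Thbd was at -0.62 and -0.60 and Plat at -0.55 and -0.50 (adjusted p from 0.00407 to 0.0258). F3 was at -0.48 at 0.60 mg/m3 (adjusted p = 0.00803). The controls of each time enter all of these, and the controls differed between times in Fgg by 2.20, Plau by 0.95 and Plaur by -1.53. The cause was not tested.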

How the results depend on the processing

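Of all values recomputed under other settings or without single arrays, 1288 kept their side of the threshold. These include uncalled values whose sign turned by less than the SD within groups. With the same sign, 53 lost a call and 36 gained one. In 11 an uncalled value turned its sign by more than that SD, and 26 turned their sign with a call before or after. The cause was not tested. Counts of called genes without single arrays ran from 0 to 2 (0.04 mg/m3), 2 to 5 (0.08), 5 to 5 (0.15) and 3 to 7 (0.60) at 1 week, and 1 to 2 at 0.60 mg/m3 and 0 to 0 at the others at 4 weeks. Between times they ran from 0 to 0, 3 to 3, 4 to 5 and 5 to 7, and between controls from 5 to 6.

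With array weights, whose estimation stopped before full convergence, counts at 4 weeks were 1, 1, 1 and 5 as the concentration rose. Of all genes 39.3%, 25.6%, 14.8% and 32.0% were called there. Between times the counts were 1 and 5 at 0.04 and 0.08 mg/m3, beside 22.7% and 60.1% of all genes. In the model of the 4-week arrays alone, added after the data had been seen, counts were 1 at 0.15 and 4 at 0.60 mg/m3. There 8.13% and 26.6% of all genes were called. At 0.04 mg/m3 after 1 week the count of 0 became 1 without the dimmest genes, with quantile normalization or with the replicate block. There 32.3%, 25.4% and 25.7% of the genes tested were called. With median-centred arrays the count became 2, beside 40.8% of all genes. Those arrays gave 1 at 0.60 mg/m3 after 4 weeks (18.5% of all genes) and 2 between times at 0.04 mg/m3 (22.4%). With the main axis of spread inside the 1-week control and lowest-concentration groups as a covariate, each 1-week count was 1 (Fgg), the 4-week counts at 0.04 and 0.08 mg/m3 were 1, counts between times were 0, 1 and 3 from 0.08 mg/m3, and that between controls 1. The axis itself set the 1-week controls apart from most groups, so lower counts with it cannot be read as a lack of change. With the replicate block, no other count moved by over 1.5 times. Same-numbered arrays correlated from -0.49 to 0.39, and at most 2 of 5 best with their own number, so they share only a number.

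With 4-week controls the 1-week counts were 6 at 0.04, 3 at 0.15 and 2 at 0.60 mg/m3, and signs turned. Of all genes 81.7%, 42.6% and 49.4% were called there, so these counts set the genes apart little. Fgg was at -1.85, -1.11, -0.33 and -0.43 from 0.04 to 0.60 mg/m3, and Plau at -0.71, -0.43, -0.18 and -0.24. Plaur was at 0.92, 0.65 and 0.97 and F3 at -0.42, -0.37 and -0.20 from 0.08 mg/m3. Thbd was at -0.32, -0.12 and -0.11 at 0.04, 0.08 and 0.60 mg/m3. With the mean of its probe sets Thbd was at -0.003, -0.048 and -0.15 from 0.08 mg/m3 at 1 week and -0.12 between controls. With the axis covariate it was at -0.026, -0.23, -0.29 and -0.60 in the same comparisons, and Plat at 0.15 mg/m3 was at -0.045. Fga and Fgb have no value without the dimmest genes, where they belong. Low signals of Fga, Fgb, Plg and Il6 limit what could be detected.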
